A study of Mus musculus with 11 samples.

Results

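The comparison asked how messenger RNA of mouse cavernous endothelial cells, kept for 5 days in high glucose, differed when the heat shock protein Hsp70 was added. It used 8 of the 11 libraries of the series: 4 of cells in high glucose and 4 of cells in high glucose with Hsp70. A library with Hsp70 was set against the high glucose library that carries the same set number in the deposited data, which gave 4 pairs, called sets 2, 3, 4 and 5 here. The remaining 3 libraries, cells in normal glucose from sets 3, 4 and 5, are quoted only as levels. The cells came from the corpus cavernosum, the erectile tissue of the penis, and were grown in medium M199 with fetal bovine serum, antibiotics and heparin. The labels give neither the glucose and Hsp70 concentrations nor the form of Hsp70. They do not say whether the samples of a group were separate cultures or animals either, so p-values measure only the spread between these samples, which may be technical. RNA was taken up in Trizol and sequenced after a stranded SMARTer library preparation.

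Hsp70 is a chaperone that binds unfolded proteins inside the cell, and outside the cell it can also bind surface receptors and act as a signal. Cth, cystathionine gamma-lyase, cleaves cystathionine to cysteine and makes the gas hydrogen sulfide, a vasodilator in erectile tissue. Cth and Asns, asparagine synthetase, are textbook targets of the transcription factor ATF4, which is translated when the integrated stress response is on, for example when amino acids are short. ATF4 then raises enzymes that make amino acids, the carriers that import them and the synthetases that load them onto transfer RNA. Ccnb1, cyclin B1, switches on the kinase that takes a cell into mitosis.

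A level below is the deposited log2(normalized count + 1), and a difference is the level with Hsp70 minus the level in high glucose of the same set. The genes tested, 18248, reached a normalized count of 1 or more in 3 or more of the 11 libraries. Normalized counts of the 8 libraries compared summed to 24.8 to 27.5 M, of which Rn45s, a ribosomal RNA gene, made up 1.842% to 6.993%. The share of genes at 0 was 12% in the libraries of sets 4 and 5 and 21.3% to 26.0% in those of sets 2 and 3. The number at 0 was the same, 2788, in every library of sets 4 and 5. A gene at 0 in both libraries of a pair counts as neither higher nor lower. In set 2, 48.5% of the genes tested were higher with Hsp70 and 47.7% lower, and the rest had a difference of 0.

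The labelled cell type was checked against markers. In set 3 the 26 endothelial markers had a mean level of 6.72 in high glucose and 6.61 with Hsp70, and in the other sets of 4.29 to 4.61. Pecam1, an adhesion protein of endothelial junctions, had levels of 3.55, 9.01, 4.51 and 3.73 in high glucose in sets 2 to 5, and 3.27, 8.86, 3.18 and 2.68 with Hsp70. The libraries of set 3 were thus far above the others in both groups, and all 4 differences were below 0 (mean -0.71, unadjusted p = 0.0522, limma). Cldn5, a tight junction protein, was between 0.00 and 0.17 outside set 3, while the fibroblast genes Dcn and Pdgfra stood at 15.17 to 17.63 and 14.84 to 15.64. Leukocyte markers, 17 tested, had mean levels of 6.97 and 6.51 in set 3 and of 2.92 to 3.53 elsewhere. In such bulk samples, fewer cells of a type and less RNA per cell cannot be told apart. Cd34 and Eng, which endothelial cells share with other cells, and Clec14a, an endothelial surface protein, were at 9.17 or more in every library. Cdh5, also of endothelial junctions, was at 9.52 and 9.45 in set 3 and at 5.68 to 8.26 in the other sets. The junction genes Pecam1 and Cldn5 were thus high in set 3 only. Cdh5 was highest there but not near 0 elsewhere. The cells are called by their label below.

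No gene passed an adjusted p of 0.05 in limma with the set as a block (0.0% called), whereas 134 genes (0.734%) were higher and 129 (0.707%) lower with Hsp70 at an unadjusted p under 0.05. The 4 differences of a gene were all above 0 in 710 genes (3.89%) and all below 0 in 806 (4.42%). Of the 9124 genes above the median level, 5071, 4326, 4862 and 4904 were higher with Hsp70 in sets 2 to 5. In the same order, 4053, 4798, 4262 and 4220 were lower. Of the 9124, 389 were higher in every set and 279 lower in every set. Only 7 of the former and 6 of the latter differed by at least 0.2 in each set, and none by 0.5. A two-sided exact sign-flip permutation over 4 pairs cannot give a p below 0.125.

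The sets differed in how much moved. Among the genes above the median level, the SD of the differences was 0.275 in set 2, 0.194 in set 3, 0.583 in set 4 and 0.266 in set 5. Genes at least 1 log2 unit higher with Hsp70 numbered 33, 11, 91 and 5 in sets 2, 3, 4 and 5, and genes at least 1 unit lower 19, 0, 617 and 8. Of the 617 genes lower in set 4, 304 had a difference of the opposite sign in the other 3 sets. Across these 9124 genes, which are not independent replicates, the differences of sets 3 and 5 correlated at r = 0.497, those of sets 3 and 4 at -0.474, and those of sets 4 and 5 at -0.451. Set 2 correlated weakly with the others (r = -0.0698, -0.0876 and -0.12).

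Transcript length and GC content moved with the differences. In set 4 the quartile of genes with the shortest transcripts (median 1730 bases) had a median difference of 0.247 and the quartile with the longest (median 6757 bases) of -0.407. In set 5 the order was the reverse, with -0.067 and 0.239, and in set 3 likewise, with -0.058 and 0.124. In set 2 they were 0.04 and 0.016. In set 4 the medians also ran from -0.322 in the quartile of lowest GC to 0.264 in the quartile of highest GC, and in set 2 the other way, from 0.108 to -0.075. With a trend on length and GC taken out of each set, the correlations of sets 3 and 5, 3 and 4, and 4 and 5 were 0.407, -0.412 and -0.331.

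**Figure D1:**
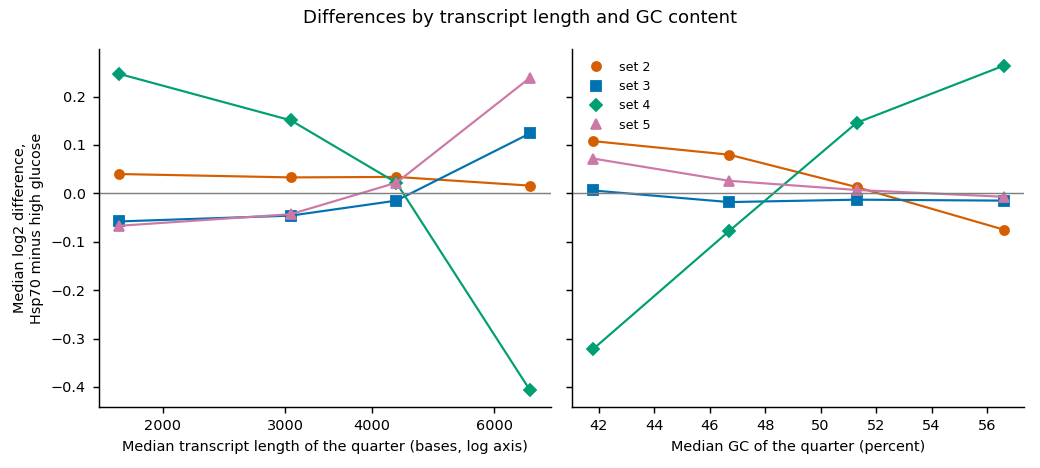
Median log2 difference (Hsp70 minus high glucose, vertical axis) of genes above the median level, by quartile of transcript length in bases (left, log axis) and of GC percent (right), with a coloured line for each set. Set 4 falls from 0.247 to -0.407 from the shortest to the longest transcripts while sets 3 and 5 climb, and in set 2 the medians fall with GC from 0.108 to -0.075.

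Cth, the gene that the series is about, was far higher with Hsp70 in set 2 and little different elsewhere. Its levels in high glucose were 8.10, 8.75, 8.12 and 8.58 in sets 2 to 5, and with Hsp70 11.01, 8.74, 8.30 and 8.75. The Hsp70 library of set 2 stood above all others, and the rest of the 2 groups overlapped. The group levels were 8.39 ± 0.33 and 9.20 ± 1.22 (SD, n = 4). The differences were 2.91, -0.01, 0.17 and 0.17, with a mean of 0.81 (SE 0.469, 95% interval -0.30 to 1.92, n = 4 pairs, adjusted p = 1.0, limma). Without set 2 the mean was 0.11. The gene lies at chr3:157894248-157925077 on the minus strand (GRCm38). In normal glucose its levels were 8.85, 8.11 and 8.88 in sets 3 to 5, beside a range of 8.10 to 8.75 in high glucose.

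Asns had the same outline. Its levels were 9.97, 9.87, 9.03 and 9.58 in high glucose and 12.33, 9.75, 9.92 and 9.43 with Hsp70, so the set 2 library with Hsp70 again stood alone. The differences of 2.37, -0.12, 0.89 and -0.15 had a mean of 0.75 (SE 0.399, 95% interval -0.20 to 1.69, adjusted p = 1.0, limma), and without set 2 a mean of 0.20. In normal glucose the level was 9.98, 9.01 and 10.57, the last of which exceeded every library but that of set 2 with Hsp70. Asns lies at chr6:7675169-7693254 on the minus strand.

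**Figure D2:**
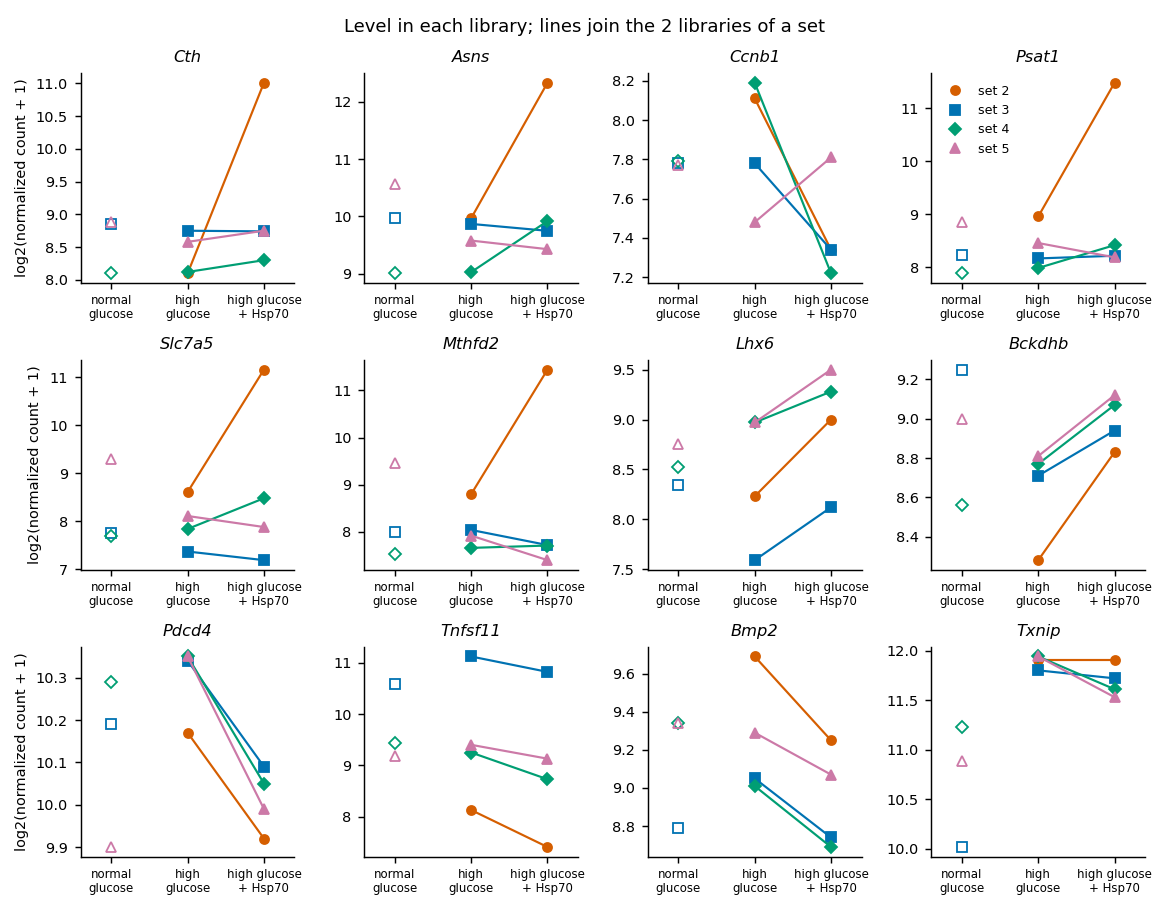
Level, log2(normalized count + 1), of 12 genes in every library (vertical axes differ between panels), with open markers for normal glucose and a line joining the high glucose and the Hsp70 library of each set. In Cth, Asns, Psat1, Slc7a5 and Mthfd2 the line of set 2 climbs by more than 2 units and those of the other sets differ by less than 1 unit, whereas all 4 lines of Lhx6 and Bckdhb climb and all 4 of Pdcd4, Tnfsf11 and Bmp2 descend.

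The ATF4 programme differed as a group in set 2. Of 39 ATF4 targets and stress factors, 37 were higher with Hsp70 in set 2, against 48.5% of all genes, with a median difference of 1.134 against 0.0. In set 3, 14 of 39 were higher (all genes 49.1%) with a median of -0.076, and in set 5, 12 of 39 (all genes 52.2%) with a median of -0.089. Set 4 lay between, with 27 of 39 higher (all genes 46.9%) and a median of 0.188. The mean level over the 39 genes was 10.17 in the set 2 library with Hsp70 and 8.55 to 8.92 in the other 7 libraries compared. In normal glucose it was 8.81, 8.66 and 9.15 in sets 3 to 5. The last of these, without Hsp70, exceeded every library compared but that of set 2 with Hsp70. With the length and GC trend taken out, the medians were 1.157, -0.083, 0.15 and -0.103. Only 1 of the 39 was higher in every set (all genes 3.89%) and 1 lower (all genes 4.42%), and 34 had a mean difference above 0 (all genes 50.7%).

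Among the factors, Atf4 itself had levels of 12.03, 11.41, 10.66 and 11.35 in high glucose and 13.03, 11.12, 11.39 and 10.63 with Hsp70. It was higher in sets 2 and 4, by 1.00 and 0.73, and lower in sets 3 and 5, by -0.29 and -0.72. Atf5, a relative that ATF4 induces, differed by 1.18, 0.04, 0.48 and -0.05, and Ddit3, which encodes the stress factor CHOP, by 0.57, -0.14, 0.69 and -0.33. Atf3, another stress factor, was lower in every set (-0.18, -0.34, -0.06 and -0.17, unadjusted p = 0.187, limma).

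The enzymes of amino acid and folate-linked carbon synthesis had the highest median of the 4 roles in set 2. All 12 were higher in set 2, with a median of 2.394, against medians of -0.098, 0.245 and -0.032 in sets 3, 4 and 5. Psat1, a serine synthesis enzyme, had levels of 8.96, 8.17, 7.99 and 8.46 in high glucose and 11.48, 8.22, 8.42 and 8.19 with Hsp70. Phgdh, the first enzyme of that route, differed by 2.42, 0.12, 0.69 and -0.43. The mitochondrial folate enzyme Mthfd2 differed by 2.64, -0.32, 0.05 and -0.53 and the branched-chain aminotransferase Bcat1 by 2.73, -0.27, -0.22 and 0.39. In all 4 of these genes the Hsp70 library of set 2 was the highest of the 8, and the remaining libraries of the groups overlapped. Aldh18a1, which starts proline synthesis, was higher in every set, by 1.55, 0.16, 0.04 and 0.02 (unadjusted p = 0.131, limma).

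All 9 amino acid carriers of the list were higher in set 2, with a median of 1.134 against 0.039, -0.212 and 0.103. Slc7a5, the carrier of leucine and other large neutral amino acids, had levels of 8.61, 7.37, 7.84 and 8.11 in high glucose and 11.16, 7.19, 8.48 and 7.88 with Hsp70. The glycine carrier Slc6a9 differed by 2.82, -0.08, -0.46 and 0.26. The cystine carrier Slc7a11, which supplies the cysteine that Cth also makes, differed less, by 0.47, 0.32, -1.08 and 0.55. Set 2 was highest with Hsp70 for Slc7a5 and Slc6a9 and not for Slc7a11, where sets 2, 3 and 5 lay together at 12.62 to 12.70 with Hsp70.

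The feedback regulators, 12 genes, had medians of 0.515, -0.073, 0.301 and -0.198. Trib3, a pseudokinase that restrains ATF4, differed by 2.15, -0.27, 0.27 and -0.32. Chac1, which degrades glutathione, differed by 1.37, 0.04, 0.79 and -1.81. Stc2, a secreted glycoprotein, differed by 0.76, 0.06, 1.00 and -0.02 (unadjusted p = 0.0461, adjusted p = 1.0, limma). Fgf21, a hormone of the fasting response, was at 0.00, 0.00, 0.06 and 0.05 in high glucose and at 2.78, 1.76, 3.17 and 0.03 with Hsp70. It passed the low-value filter through the Hsp70 libraries alone among these 8, and its levels are near the floor (unadjusted p = 0.0167, adjusted p = 1.0, limma).

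The cytosolic aminoacyl-tRNA synthetases, which charge transfer RNA with amino acids, had medians of 0.745, -0.041, 0.375 and -0.026. Of the 20 enzymes, 17 were higher in set 2 (all genes 48.5%), 8 in set 3 (49.1%), 17 in set 4 (46.9%) and 7 in set 5 (52.2%), and all 20 had a mean above 0 (50.7%). Mars, for methionine, had levels of 10.72, 10.77, 10.46 and 10.51 in high glucose and 11.46, 10.85, 10.97 and 10.60 with Hsp70, higher in every set (unadjusted p = 0.0437, adjusted p = 1.0, limma). Kars, for lysine, was higher in every set by 0.06, 0.07, 0.43 and 0.13. The 17 mitochondrial synthetases, encoded by separate genes, had medians of 0.11, 0.018, 0.051 and 0.044, near those of all genes.

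**Figure D3:**
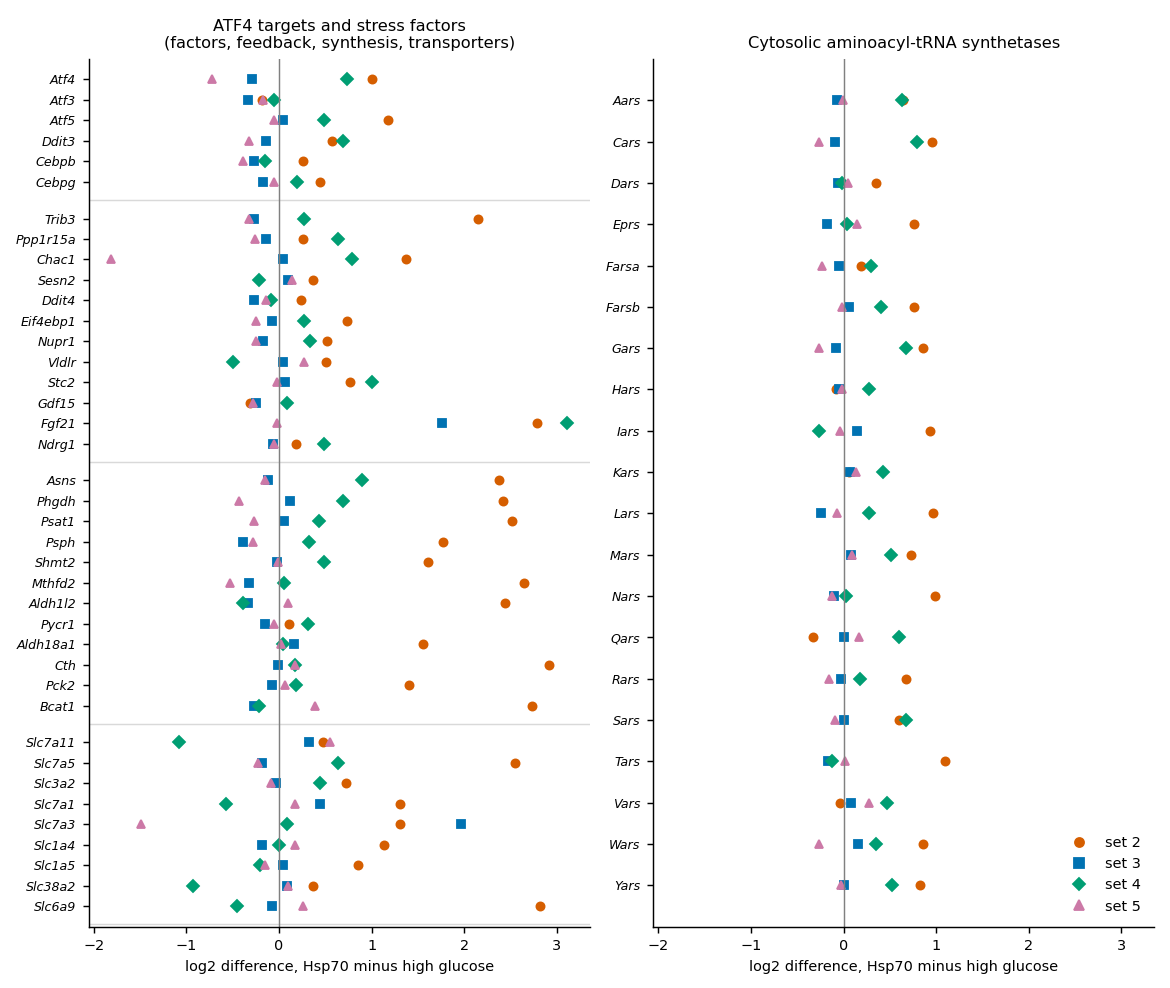
Within-set log2 difference (Hsp70 minus high glucose, horizontal axis) of each ATF4 target or stress factor (left) and each cytosolic synthetase (right), with a marker for each set. Markers of set 2 lie to the right for 37 of the 39 and 17 of the 20 genes, and those of sets 3 and 5 gather around 0.

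ATF4 binds, with a partner, the composite C/EBP-ATF element. It was searched as TGATGNAAN on both strands of the RefSeq promoter windows (GRCm38.p6), which run from 250 bases before to 50 after a gene's start. Cth, Slc7a5 and some other list genes had no window in the source used and were not searched. The element occurred in 1299 of 32851 windows (3.95%). Counted by gene, it occurred in 420 of the 13448 genes tested that had a window (3.12%). The counts were 11 of the 32 ATF4-list genes with a window (34.4%), 5 of 12 synthetases (41.7%) and 1 of 32 mitosis genes (3.12%). The ATF4 list was drawn up from known ATF4 targets and stress factors, so its higher share is not a result of these data. A match is a description of letters, not of binding. The stretches below, 5′ to 3′ on the gene's strand with the match in capitals, are shown because these genes were higher in set 2, so that the shared letters can be compared. They are Asns at chr6:7693210-7693272 (minus strand), Chac1 at chr2:119351008-119351096 (plus), Pck2 at chr14:55540122-55540210 (plus), Slc7a11 at chr3:50443631-50443719 (minus), Gars at chr6:55037930-55038000 (plus) and Tars at chr15:11399659-11399714 (minus).
Asns: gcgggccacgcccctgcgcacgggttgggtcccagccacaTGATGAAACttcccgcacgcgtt
Chac1: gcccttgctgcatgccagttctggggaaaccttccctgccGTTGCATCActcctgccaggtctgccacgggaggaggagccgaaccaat
Pck2: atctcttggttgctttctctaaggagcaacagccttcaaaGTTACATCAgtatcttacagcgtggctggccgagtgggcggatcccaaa
Slc7a11: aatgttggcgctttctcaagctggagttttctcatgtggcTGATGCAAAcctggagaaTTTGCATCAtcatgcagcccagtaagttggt
Gars: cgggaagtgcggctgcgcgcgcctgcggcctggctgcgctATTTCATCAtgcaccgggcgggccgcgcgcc
Tars: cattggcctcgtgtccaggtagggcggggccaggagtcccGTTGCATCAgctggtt

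In Asns and Slc7a11 the element reads on the gene's own strand, and Slc7a11 has a further copy on the opposite strand. The other 4 hold it on the opposite strand. All of the genes shown were chosen as higher in set 2, so their sign there is not a result. In set 2 the differences of these genes were 2.37 for Asns, 1.37 for Chac1, 1.40 for Pck2, 0.47 for Slc7a11, 0.86 for Gars and 1.10 for Tars. In set 5 they were -0.15, -1.81, 0.06, 0.55, -0.26 and 0.02 in the same order. Other members of the ATF4, synthetase and cholesterol synthesis lists also held a match. Of those, Atf3 (-0.18) and Idi1 (-0.73) were lower in set 2 and the rest were higher. Above the median level, the 177 genes with the element had a median of 0.098 in set 2 against 0.028 for the 6794 genes without it. In sets 3, 4 and 5 the medians were -0.002, 0.002 and 0.019 with the element and -0.008, 0.042 and 0.02 without it. The 165 of them outside the ATF4 and synthetase lists had a median of 0.083, and 1 of those exceeded 1 log2 unit.

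Of the 33 genes above the median level that were at least 1 log2 unit higher in set 2, 14 belong to the ATF4 list and 1 to the synthetases. The other 18 were named after their values were seen. They include Gpt2, an alanine aminotransferase (1.59), Ptx3, a secreted innate immune protein (1.33), Nr4a1, an immediate early nuclear receptor (1.23), and Thbd, the endothelial thrombin receptor thrombomodulin (1.12).

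The 9 enzymes of hydrogen sulfide metabolism, Cth among them, differed in direction in set 2, where 4 were higher and 5 lower. Cbs, cystathionine beta-synthase, which feeds Cth and also makes hydrogen sulfide, had levels of 5.73, 4.53, 4.91 and 3.46 in high glucose and 4.28, 4.83, 4.76 and 4.53 with Hsp70. It was lower in sets 2 and 4, by -1.45 and -0.15, and higher in sets 3 and 5, by 0.29 and 1.07, and the groups overlapped. Mpst, the third hydrogen sulfide producer, differed by -0.34, 0.05, 0.37 and -0.14 (mean -0.02, SE 0.179). Tst, a thiosulfate sulfurtransferase of the breakdown route, was higher in every set, by 0.04, 0.45, 0.77 and 0.17 (unadjusted p = 0.196, limma). Got1, an aminotransferase that supplies the third of these routes, differed by 0.75, -0.09, 0.36 and -0.54, and Sqrdl, which oxidises sulfide in mitochondria, by 0.23, -0.07, 0.57 and 0.08. The 9 enzymes together had medians of -0.015, 0.035, 0.36 and 0.085.

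The cells' own messages for Hsp70 had mean differences near 0 or differed between sets. Hspa1a, the stress-inducible Hsp70, had levels of 9.32, 8.94, 8.97 and 8.86 in high glucose and 9.28, 8.89, 8.86 and 8.99 with Hsp70, and lower levels of 8.28 to 8.52 in the 3 normal glucose libraries. Hspa1b, its neighbouring and nearly identical copy, with which reads can be shared, differed by 0.06, -0.05, -0.28 and 0.27. Hspa8, the constitutive Hsp70, differed by -0.03, 0.03, 0.71 and 0.19 (mean 0.22, unadjusted p = 0.195, limma). The mean difference of Hspa1a was -0.01, with a 95% interval of -0.28 to 0.26. Hsph1, a nucleotide exchange factor of the Hsp110 family, was higher in every set (0.33, 0.06, 0.35 and 0.01), as was Hspb1, a small heat shock protein (0.04, 0.14, 0.32 and 0.06). Of 26 cytosolic chaperones and heat shock factors, these 2 were the only ones with 4 differences above 0 (all genes 3.89%). None had 4 below 0 (all genes 4.42%).

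Of 16 reported receptors for Hsp70 outside the cell, 15 were tested. Msr1 and Cd36, scavenger receptors of macrophages and other cells, were lower in every set, by -0.70, -0.22, -0.42 and -1.05 and by -0.23, -0.02, -0.71 and -0.14. That is 2 of the 15 (all genes 4.42%), and 1 was higher in every set (all genes 3.89%). Outside set 3, Msr1 had low levels of 1.69 to 3.01. Siglece, a sialic acid receptor of myeloid cells, had levels of 0.00, 4.40, 0.16 and 0.12 in high glucose and 1.54, 4.60, 1.01 and 2.39 with Hsp70 (unadjusted p = 0.0426, adjusted p = 1.0, limma), higher in every set and near the floor outside set 3. Lrp1, the most abundant of them at 16.76 to 17.86, differed by -0.25, 0.33, -0.25 and 0.61, and the toll-like receptor Tlr4 by -0.02, 0.12, -0.74 and 0.21.

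Ccnb1 was lower with Hsp70 in 3 of the 4 sets. Its levels were 8.11, 7.78, 8.19 and 7.48 in high glucose and 7.34, 7.34, 7.22 and 7.81 with Hsp70. Sets 2, 3 and 4 with Hsp70 lay below all 4 high glucose libraries, and set 5 lay above the others of its group, so the groups overlapped. The differences of -0.77, -0.44, -0.96 and 0.33 had a mean of -0.46 (SE 0.222, 95% interval -0.97 to 0.05, unadjusted p = 0.0714, adjusted p = 1.0, limma). Without 1 set at a time the mean lay between -0.73, without set 5, and -0.29. In normal glucose the levels were 7.78, 7.79 and 7.77. Ccnb1 lies at chr13:100778650-100786570 on the minus strand.

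The 39 genes of mitosis had medians of -0.512, -0.089, -0.141 and 0.147. In set 2, 36 were lower (all genes 47.7%), in set 3, 23 (all genes 49.5%), in set 4, 21 (all genes 53.1%) and in set 5, 8 (all genes 47.8%). Set 2 thus had more and set 5 fewer lower genes than the share of all genes, while set 4 was close to that share. Of the 9124 genes above the median level, a smaller share, 4262, was lower in set 4. Nek2, a centrosome kinase, was lower in every set (-0.74, -0.18, -0.14 and -0.11), as were the spindle protein Ckap2l (-0.63, -0.17, -0.50 and -0.07, unadjusted p = 0.0503, limma) and securin, Pttg1 (-0.08, -0.10, -0.22 and -0.23). Foxm1, which transcribes many of these genes, was higher in every set (0.09, 0.07, 0.14 and 0.27). Of the 39, 3 were lower in every set (all genes 4.42%) and 1 was higher (all genes 3.89%). Bub1, a spindle checkpoint kinase, differed by -0.54, -0.45, -1.37 and 0.53, and the kinesin Kif2c by -1.09, -0.01, -0.19 and 0.02. The 33 genes of DNA replication and the G1/S transition had medians of 0.073, -0.148, 0.105 and 0.065, with no such difference in set 2.

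Cholesterol synthesis genes were also lower in set 2. All 20 enzymes of the pathway were lower there, with a median of -0.572, against -0.063, 0.457 and 0.151 in sets 3, 4 and 5. Over the whole list of 26 genes the medians were -0.47, -0.066, 0.176 and 0.165. Idi1, which isomerises isopentenyl diphosphate, was lower in every set (-0.73, -0.15, -0.14 and -0.03, unadjusted p = 0.108, limma). Insig1, which holds back the factor SREBP in the endoplasmic reticulum and is itself an SREBP target, had levels of 10.77, 10.15, 10.68 and 10.72 in high glucose and 10.43, 10.06, 10.52 and 10.22 with Hsp70, lower in every set (unadjusted p = 0.0572, limma). Hmgcs1, the synthase before the rate-limiting reductase, differed by -0.29, -0.40, -0.45 and 0.02 (unadjusted p = 0.0571, limma). The 11 genes of fatty acid synthesis had medians of -0.287, 0.059, 0.012 and 0.158, and all 11 were higher in set 5.

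Genes above the median level with 4 differences of the same sign were ranked by the smallest of the 4. Lhx6, a LIM homeobox factor, led the higher genes. Its levels were 8.23, 7.59, 8.97 and 8.97 in high glucose and 9.0, 8.12, 9.28 and 9.50 with Hsp70. Every set was higher, while the groups overlapped because sets differ in level, and the mean difference was 0.53 (SE 0.131, 95% interval 0.23 to 0.84, unadjusted p = 0.00343, adjusted p = 1.0, limma). Bckdhb, a subunit of the enzyme that commits branched-chain amino acids to breakdown, had levels of 8.28, 8.71, 8.77 and 8.81 in high glucose and 8.83, 8.94, 9.07 and 9.12 with Hsp70. Here the groups did not overlap, as in 52 of all genes tested in that direction (0.285%) (mean 0.35, unadjusted p = 0.0236, adjusted p = 1.0, limma). In normal glucose Bckdhb stood at 9.25, 8.56 and 9.0.

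Pigr, the polymeric immunoglobulin receptor, was higher by 0.21, 0.24, 1.33 and 0.48, with levels of 11.76 to 12.84 in high glucose and 11.97 to 13.91 with Hsp70. Rab3c, a vesicle GTPase, was higher by 0.58, 0.20, 0.43 and 0.25 (unadjusted p = 0.0172, adjusted p = 1.0, limma), and Osr2, a zinc finger factor, by 0.44, 0.24, 0.25 and 0.26. The microtubule proteins Eml4 and Camsap1 were higher by 0.22 to 0.38 and by 0.18 to 0.30. The other 5 of the 12 highest ranked, Pcgf5, Spats2l, Cyp39a1, Galm and Rbbp7, were higher by 0.15 to 0.32 in every set.

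Among the lower genes, Tnfsf11, the cytokine RANKL, had levels of 8.13, 11.12, 9.25 and 9.40 in high glucose and 7.41, 10.82, 8.73 and 9.13 with Hsp70. All 4 sets were lower, by -0.72, -0.31, -0.51 and -0.26 (unadjusted p = 0.00792, adjusted p = 1.0, limma), and the groups overlapped, since set 3 was high in both. Pdcd4, a repressor of translation initiation, had levels of 10.17, 10.34, 10.35 and 10.35 in high glucose and 9.92, 10.09, 10.05 and 9.99 with Hsp70. Its groups did not overlap, as in 59 genes in that direction (0.323%), and the differences ran from -0.25 to -0.36 (unadjusted p = 0.0295, adjusted p = 1.0, limma). In normal glucose Pdcd4 was at 10.19, 10.29 and 9.90, across the range of both groups.

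Bmp2, a bone morphogenetic protein that endothelial cells secrete, had levels of 9.69, 9.05, 9.01 and 9.29 in high glucose and 9.25, 8.74, 8.69 and 9.07 with Hsp70, lower in each set. Gdf11, of the same ligand family, was lower by -0.18, -0.39, -0.29 and -0.20. Serpina3h and Serpina3i, of a multigene family of protease inhibitors whose reads may be split between copies, were lower by -1.24, -0.25, -0.74 and -0.35 and by -0.67, -0.28, -0.20 and -0.34. The annotation used here lists Serpina3h as a transcribed pseudogene. Lars2, the mitochondrial leucyl-tRNA synthetase, was lower by -0.51, -0.35, -0.35 and -0.19 (unadjusted p = 0.0208, adjusted p = 1.0, limma). Every cytosolic synthetase had a mean difference above 0, but their medians in sets 3 and 5 were -0.041 and -0.026, below 0 like Lars2. The Lars2 levels of 14.08 to 15.25 were far above the mean of the 17 mitochondrial synthetases, 8.22 to 8.42. Whether all its reads came from this gene was not tested. Stk17b, an apoptosis-linked kinase, was lower by -0.58, -0.24, -0.56 and -0.18, and Chodl, a membrane lectin, by -0.89, -0.33, -0.34 and -0.25. Mkks, a chaperonin-like protein, was lower by -0.23 to -0.43, Ang, the ribonuclease angiogenin, by -0.15 to -0.27, and Pola2, a subunit of DNA polymerase alpha, by -0.21, -0.16, -2.43 and -0.20.

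**Figure D4:**
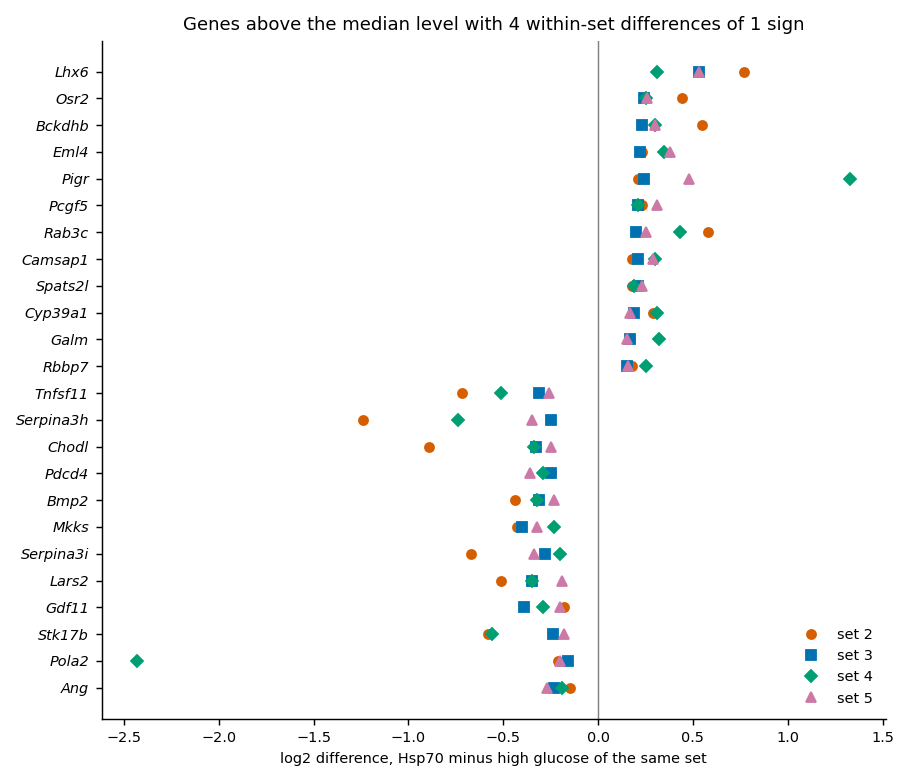
Within-set log2 difference (Hsp70 minus high glucose, horizontal axis) of the 12 higher and 12 lower genes above the median level with 4 differences of the same sign and the largest smallest difference, with a marker for each set. All markers of a gene lie on the same side of 0 because the genes were chosen that way, and most lie within 0.5 of it.

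The 38 NF-kB factors and targets had medians of -0.056, -0.082, 0.107 and -0.299, and 28 had a mean below 0 (all genes 49.3%). Tnfaip3, Selp, Csf3, Ccl2, Cxcl1 and Cxcl5, that is 6 of 38 against 4.42% of all genes, were lower in every set. With the length and GC trend taken out, 3 of the 38 were. Csf3, the granulocyte growth factor, had levels of 8.95, 9.66, 8.73 and 8.71 in high glucose and 8.48, 9.17, 8.71 and 7.80 with Hsp70 (unadjusted p = 0.0185, adjusted p = 1.0, limma). The chemokines Ccl2 and Cxcl1 differed by -0.15, -0.04, -0.18 and -0.54 and by -0.11, -0.11, -0.04 and -0.63. Il6, an acute-phase cytokine, was lower only in set 5 among the 4 (0.58, 0.02, 0.11 and -1.23).

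Leukocyte markers, which macrophages and other immune cells express, were summed in the same libraries. Their summed normalized count was 775, 6163, 712 and 665 in high glucose and 950, 5185, 688 and 629 with Hsp70, higher in set 2 and lower in the other 3. Tyrobp, a leukocyte adaptor, was listed at 0.00 in both libraries of set 2. Adgre1, a macrophage surface protein, was at 2.29, 9.52, 3.52 and 3.85 in high glucose and 1.52, 9.26, 3.01 and 1.13 with Hsp70, lower in every set (unadjusted p = 0.0456, adjusted p = 1.0, limma), and 2 of the 17 markers were lower in every set (all genes 4.42%). Fibroblast markers, 16 genes, had medians of -0.07, -0.079, 0.332 and -0.364, with 13 of the 16 lower in set 5 (all genes 47.8%). The part of these cells in the inflammatory differences was not tested.

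Interferon-stimulated genes, 38 in all, had medians of 0.188, 0.108, -0.04 and -0.076. In set 2, 32 were higher (all genes 48.5%), in set 3, 33 (all genes 49.1%), in set 4, 19 (all genes 46.9%) and in set 5, 11 (all genes 52.2%). The antiviral genes Oasl2 (0.17, 0.22, 0.01 and 0.04), Ifi35 and Dhx58 were higher in every set by small amounts, that is 3 of 38 against 3.89% of all genes. Rsad2 and Cxcl10 differed most between sets, by 0.71, 0.34, -0.58 and -1.01 and by 0.30, -0.28, -1.0 and -1.45.

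Genes of blood vessels and of the nitric oxide route showed no common difference. Nos3, the endothelial nitric oxide synthase, had levels of 1.97, 5.57, 1.79 and 2.94 in high glucose and 2.54, 4.98, 1.59 and 0.10 with Hsp70, low in all but set 3. Vegfa, the main angiogenic growth factor, differed by 0.21, -0.18, -0.30 and -0.34, and Angpt1, the ligand that activates the Tie2 receptor, by 0.32, 0.00, -0.55 and -0.01. Cdh5, VE-cadherin, differed by 1.07, -0.06, -0.25 and 0.32, and Cxcl12, a chemokine for progenitor cells, by -0.39, -0.09, 0.06 and -0.19. Of 17 genes of the Vegf, angiopoietin and Tie group, Figf, which encodes Vegfd, was the only member higher in every set (0.01, 0.18, 0.58 and 0.14), and none was lower in every set.

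Rgs5, a regulator of G protein signalling that marks pericytes, had levels of 5.95, 9.21, 6.28 and 5.86 in high glucose and 4.81, 8.78, 4.65 and 5.25 with Hsp70. It was lower in every set, by -1.14, -0.43, -1.63 and -0.61 (mean -0.95, SE 0.245, unadjusted p = 0.00453, adjusted p = 1.0, limma), and the groups overlapped through set 3. Kcnj8, a potassium channel subunit of pericytes, was lower in every set too, by -0.44, -0.14, -0.26 and -0.05. No other pericyte marker was, which makes 2 of 9 against 4.42% of all genes. The 9 pericyte markers tested had medians of -0.127, -0.019, -0.083 and 0.036, and Pdgfrb, the receptor that defines these cells, differed by -0.04, 0.19, 0.27 and 0.01.

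Txnip, a thioredoxin inhibitor that glucose induces, was the check on the high glucose treatment. Its levels were 11.90, 11.80, 11.94 and 11.94 in high glucose, 11.90, 11.72, 11.61 and 11.53 with Hsp70, and 10.02, 11.23 and 10.89 in normal glucose. All high glucose libraries with or without Hsp70 lay above those of normal glucose, and the differences with Hsp70 were 0.00, -0.08, -0.34 and -0.40 (mean -0.21, SE 0.126, unadjusted p = 0.141, limma). Hmox1, heme oxygenase 1, a target of the redox factor NRF2, differed by 0.07, -0.11, 1.07 and -0.49, and the 23 redox genes had no more than 1 member with 4 differences of the same sign, which is Gpx1 (-0.06, -0.09, -0.12 and -0.07).

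Genes of hypoxia and cell death held a few repeating members. Car9 and Car12, membrane carbonic anhydrases that hypoxia induces, were higher in every set, by 0.46, 0.30, 0.52 and 0.35 (unadjusted p = 0.0366, adjusted p = 1.0, limma) and by 0.15, 0.58, 0.79 and 0.24. Bnip3, Egln1, Egln3 and Plod2, other targets of the same factor, were lower in every set, so that the 22 genes split in direction. That is 2 of 22 higher (all genes 3.89%) and 4 of 22 lower (all genes 4.42%). Of 33 p53 targets and apoptosis genes, 25 had a mean below 0 (all genes 49.3%) and 4 were lower in every set (all genes 4.42%), among them Mdm2, Pmaip1 and Casp9. Casp9, the caspase of the mitochondrial pathway, differed by -0.09, -0.22, -0.46 and -0.39 (unadjusted p = 0.0873, limma).

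In genes of messenger RNA export, splicing and transcription, 31 of 42 had a mean above 0 (all genes 50.7%). Thoc5, Nelfa, Sf3a1, Sf3a2 and Sf3b1, that is 5 of 42 against 3.89% of all genes, were higher in every set. Nelfa, a subunit of the complex that pauses RNA polymerase II, was higher by 0.36, 0.02, 0.52 and 0.40 (unadjusted p = 0.0406, adjusted p = 1.0, limma). Taf15, an RNA-binding protein of the FET family, differed by 0.95, -0.03, 0.60 and 0.11. The medians of the list were 0.07, -0.04, 0.434 and -0.073, and set 4 still had 0.353 with the length and GC trend taken out.

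Several pathways had opposite signs in different sets. Over all genes, 47.7%, 49.5%, 53.1% and 47.8% were lower in sets 2 to 5. All 17 glycolytic enzymes were higher in set 4 (median 0.364, all genes 46.9% higher), and 15 and 14 of them were lower in sets 2 and 3. The 14 chaperones of the endoplasmic reticulum were lower in 13, 13 and 14 genes in sets 2, 3 and 5 and higher in 13 in set 4. Of 15 lysosomal genes, 14 were higher in set 4 and all 15 lower in set 5, and of 35 ribosomal proteins, 33 were lower in set 3. With the length and GC trend taken out, the median of the glycolytic enzymes in set 4 was 0.217, while that of the ribosomal proteins in set 3 went from -0.064 to 0.001 and in set 5 from -0.036 to 0.125.

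**Figure D5:**
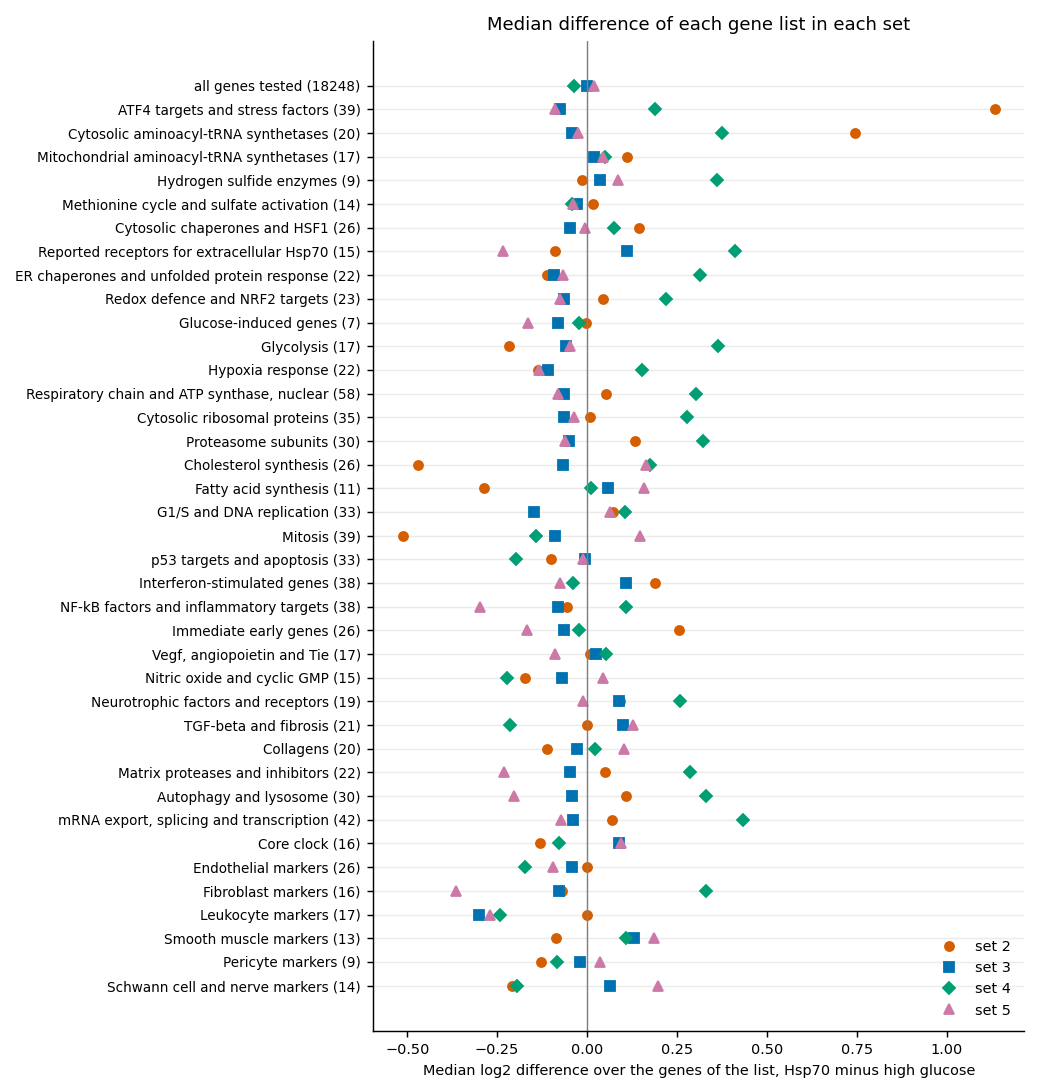
Median log2 difference (Hsp70 minus high glucose, horizontal axis) over the genes of each list, with a marker for each set and the number of genes tested in brackets. The Ssxb germ cell genes, described below, are left out. In set 2 the ATF4 targets (1.134) and the cytosolic synthetases (0.745) lie far to the right, and mitosis (-0.512) and cholesterol synthesis (-0.47) to the left. The synthetases also lie to the right in set 4 (0.375). In many other lists set 4 lies opposite to sets 3 and 5.

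A cluster of germ cell genes on the X chromosome was near 0 in most libraries and present in 3 of the 4 with Hsp70. Ssxb3 (chrX:8583404-8591816), of a family of synovial sarcoma X breakpoint relatives, was at 0.00, 1.17, 0.19 and 0.15 in high glucose and at 6.01, 0.51, 4.81 and 3.97 with Hsp70. Gm14459 (chrX:8514052-8524954), its neighbour, was at 0.00, 0.00, 0.18 and 0.14 in high glucose and at 5.90, 0.00, 4.70 and 3.76 with Hsp70. Sets 2, 4 and 5 with Hsp70 were thus high, and set 3 with Hsp70 was not above its high glucose library. In normal glucose both were at 0.27 or less. The summed normalized count of the 8 family members tested was 1.96, 9.64, 4.06 and 3.72 in high glucose and 266, 8.57, 114 and 65.9 with Hsp70.

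In limma Gm14459 had an unadjusted p of 0.0043, Ssxb6 of 0.0044, Ssxb2 of 0.00572, Ssxb8 of 0.00727 and Ssxb3 of 0.0103, and the adjusted p was 1.0 for each. These genes are near-identical copies whose values repeat from gene to gene, so that they count as a single signal that cannot be assigned to a copy. They passed the filter on low values through the Hsp70 libraries, and 3 of the 11 members listed did not pass it.

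Some genes stood out in a single set. In set 2, Fgf9, a fibroblast growth factor (-1.43), Slc16a3, the lactate exporter (-1.42), and Cd248, a stromal surface protein (-0.99), lay furthest below the other sets. In set 3, Plk5, Hmha1, Grin3b, Apc2 and Abca7 lay furthest above, by 1.75, 1.68, 1.53, 1.22 and 0.98, and all 5 lie close together on chromosome 10, between positions 79970715 and 80365489. In set 4, Apba2 (2.98) and Ffar2 (3.10) were the furthest above and the small RNA gene Rn4.5s (-4.47) and the drug-metabolising Cyp2e1 (-3.36) among the furthest below. In set 5, Cxcr2, a neutrophil chemokine receptor (0.99), lay above, and Il6 (-1.23), Ccl8 (-0.95) and Ptpn22 (-0.72) below.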

How the data were processed

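The authors deposited 1 table of log2 values per library. That these are log2(normalized count + 1) was inferred from the values, which start at 0 and, once the log is undone, sum to a similar total in each library. In sets 4 and 5 many low genes hold normalized counts between 0 and 1 rather than 0. TopHat, edgeR and the genome build mm10 are named per the submitters' processing notes, without versions. How counts were normalized, the annotation, the strand setting and the handling of multiply mapped reads were not given in the sources used here. Each table held 23282 rows. For a repeated symbol the row of highest mean stayed (44 rows dropped), which left 23238 genes, of which 18248 had a normalized count of at least 1 in 3 or more of the 11 libraries. The 13 mitochondrially encoded genes were not analysed here.

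Differences were taken within sets, by the set number in the deposited names. The main test was limma 3.58.1 in R 4.3.3 on the 8 libraries with the set as a block, a trended prior and robust variances, two-sided, with Benjamini-Hochberg adjustment at 0.05. All adjusted p-values are over the genes tested. The fit was tested on simulated data with known changes. Alternatives were the fit without the block, each set left out, other filters, pseudocount 10, quantile normalization, median centring, array weights and, chosen after seeing the data, a trend on transcript length and GC taken out of each set. Positions and lengths are from GENCODE M21 and promoter windows from RefSeq, both GRCm38. Python 3.11.15 and matplotlib 3.10.9 made the summaries and plots.

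The comparison, its genes and its gene lists were chosen with earlier results of these data known, so counts over lists carry no test and are read against the same counts over all genes. All genes include many near the floor, and the shares of the genes above the median level differ from theirs. Genes were named by rule: the genes of the study question; the 12 higher and 12 lower genes above the median level with 4 differences of the same sign, ranked by the smallest, predicted names left out; up to 6 members of each list, those with 4 differences of the same sign first; and for each set the 5 genes furthest above and below the other sets. Other genes were named after their values were seen, to show the range within a list. The values of 2 genes that this rule names are not reported here.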

Additional observations from a re-analysis of the deposited data

Results flagged for a closer look

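In 96 groups of 4 libraries (48 genes and gene lists, without and with Hsp70), the highest or lowest library was compared with the others by the gap to its neighbour over the whole range, against Dixon's 95% critical value. Chance passes about 1 in 20 independent groups, and 15 passed here. These groups share the same libraries, and their genes and lists were chosen with values known. The count can therefore not be read against that rate.

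In the Hsp70 library of set 2, Cth stood at 11.01 against 8.30 to 8.75 in the other 3 sets, Asns at 12.33 against 9.43 to 9.92, and the mean of the ATF4 targets and stress factors at 10.17 against 8.55 to 8.77.

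Set 3 stood apart by cell type markers in both groups. The endothelial marker mean was 6.72 in high glucose against 4.29 to 4.61 and 6.61 with Hsp70 against 4.35 to 4.53. The leukocyte marker mean was 6.97 against 2.92 to 3.53 and 6.51 against 3.06 to 3.11. Pecam1 with Hsp70 was at 8.86 against 2.68 to 3.27, Angpt1 in high glucose at 11.64 against 10.48 to 10.61, and Ang at 12.25 in high glucose and 12.02 with Hsp70 against 10.85 to 10.99 and 10.62 to 10.80. Pola2, which is not a cell type marker, was at 11.79 with Hsp70 in set 3 against 9.36 to 9.46. In high glucose it was at 11.95 in set 3 and 11.86 in set 4, against 9.57 and 9.65 in sets 2 and 5.

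The remaining 3 were Serpina3h in high glucose in set 4 (9.71 against 7.87 to 8.0), Pdcd4 in high glucose in set 2 (10.17 against 10.34 to 10.35) and Mkks with Hsp70 in set 5 (7.88 against 8.30 to 8.39).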

How the results depend on the processing

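No gene passed an adjusted p of 0.05 in limma in any of the 17 fits, and the lowest adjusted p was 0.338, without set 4. At an unadjusted p under 0.05, 134 genes were higher and 129 lower; there were 50 and 46 with no replicate block, 77 and 78 with the filter at 10, 243 and 276 without trend and robust, and 934 and 547 with array weights. Leaving out each replicate in turn gave 104 to 822 higher and 137 to 299 lower, the upper ends without set 4. Signs shared by the 3 remaining sets numbered 1487 to 2556 higher and 1583 to 2198 lower. Median centring split the 4-of-4 genes 596 higher to 1077 lower, against 710 to 806.

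Without 1 set the mean difference ranged from 0.11 to 1.09 for Cth (lowest without set 2), from 0.20 to 1.04 for Asns (lowest without set 2) and from -0.73 to -0.29 for Ccnb1; array weights gave 0.45, 0.27 and -0.34. Over the fits that left out 1 set, the mean ranged from -0.44 to 0.40 for Cbs, -0.14 to 0.09 for Mpst, -0.06 to 0.02 for Hspa1a, -0.09 to 0.09 for Hspa1b, -0.00015 to 0.44 for Cdh5, -0.18 to 0.34 for Hmox1 and -0.18 to 0.10 for Angpt1. Array weights turned Cbs (0.21), Hspa1b (0.03), Hmox1 (-0.12) and Angpt1 (0.02), and quantile normalization turned Mpst (0.01). The cause was not tested.

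For the pairing, the deviations of same-set libraries from their group means correlated at 0.422, 0.691, 0.0586 and 0.262 in sets 2 to 5. Not every library correlated best with its own set, so set 4 gives no sign of pairing beyond its name. The replicate block changed no call at the adjusted threshold. With 4 pairs and values near the floor for low genes, small differences were not detectable.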
